A study of Caenorhabditis elegans with 4 samples.

Results

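The regions described here are the EGL-27::GFP binding regions of chromosome III of the nematode Caenorhabditis elegans. They were taken as all entries of the deposited region list that lie on chromosome III, which gave 664 of 3728 regions. ChIP-seq recovers the DNA crosslinked to a protein with an antibody and sequences it, and input is the same sonicated DNA without the antibody step. The study used 2 ChIP and 2 input libraries, numbered as replicates 1 and 2 of each kind. All came from fed hermaphrodites of the L1 stage, the first larval stage, of strain OP177, which has the allele unc119(ed3) and the transgene wgIs177, made of egl-27::TY1 EGFP FLAG with a copy of unc119. They were grown at 20 °C from synchronized starved larvae on HB101 bacteria and fixed with 2% formaldehyde. Both kinds of library therefore carried the unc-119 mutation, the transgene and its unc-119 copy. The antibody was raised against GFP. Per the labels, the transgene was introduced by bombardment of a plasmid and the tagged protein follows the expression pattern of egl-27. Its dose relative to the native gene is not given, and libraries of a strain without the tag were not analysed here. The animals were used whole, so binding is an average over all cells of the larva, and the protocol text names embryos at the lysis step although the stage is labelled fed L1.

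EGL-27 belongs to the family of MTA proteins, which in animals are subunits of chromatin complexes with histone deacetylase activity, and it carries a GATA-type zinc finger. In C. elegans egl-27 is known from genetics for roles in cell migration, in cell polarity and in the patterning of Hox gene expression. The chromosomes of this worm have no single centromere, and on the autosomes a gene-rich centre with little recombination lies between arms richer in repeats. Chromosome III carries all 6 Hox genes looked up in a gene table of the build WBcel235, ceh-13, lin-39, mab-5, egl-5, nob-1 and php-3, which set the identity of cells along the body axis, and also unc-119, the marker used for the transgene. egl-27 itself lies on chromosome II.

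A region here is a stretch of the genome, given by its first and last base in the build WormBase WS180 and counted from 1, in which the authors' caller PeakSeq scored more ChIP than input tags. The list joins all libraries and has a single q-value for each region, so no value per library and no spread between replicates can be given. The depth of the libraries is unknown. Nothing was tested over regions, because neighbouring regions are not independent and are not replicates of the larvae. Values of the other chromosomes stand beside those of III as descriptions, and whether III differs from them was not tested. Where 95% exact intervals are given, they cover counting error only, and they treat regions as independent, which makes them too narrow. No annotation of WS180 was used, so no region is assigned to a gene, an exon or a promoter, and no sequence is printed.

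Chromosome III had the highest density of EGL-27::GFP regions of the 6 chromosomes. Its regions numbered 48.2 per Mb (44.6 to 52.03, exact Poisson interval), where length is the last listed base, 13771266. The other 5 chromosomes ranged from 32.6 per Mb on II to 41.2 on X (38.3 to 44.3), and together had 35.5 per Mb. The difference was found in many bins, but not along the whole chromosome. Of the 13 full 1 Mb bins of III, 11 held more regions than the median bin of the other chromosomes, which had 35. The emptiest bin of III had 28 regions and the fullest 62, against 8 and 65 in the 83 full bins elsewhere. Only 3 of the 138 bins of 100 kb on III were empty (2.17%), against 6.21% to 12.4% on the other chromosomes. Per 100 protein-coding genes the order changed, with 25.1 regions on III and 26.7 on X. X was also slightly ahead in the share of length covered by regions, with 1.23% against 1.21% on III.

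**Figure D1:**
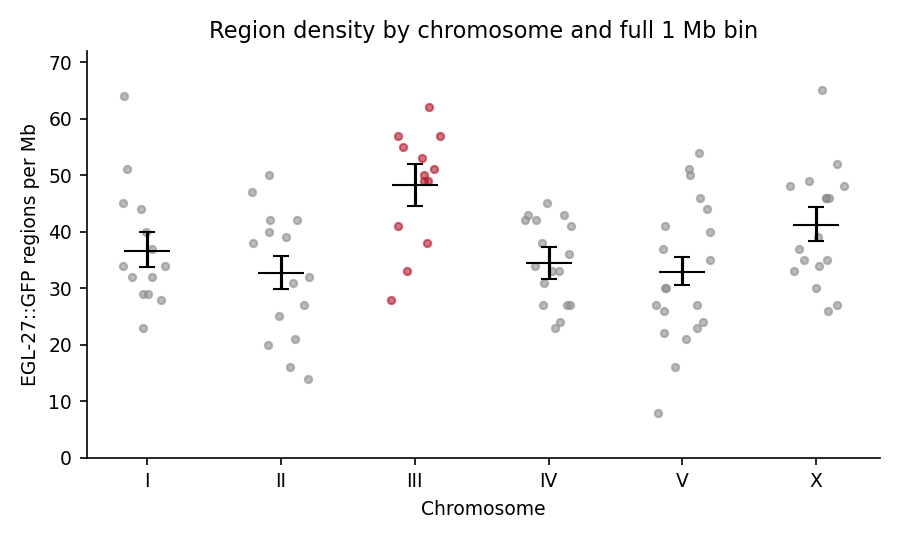
EGL-27::GFP regions per Mb (y axis) on each chromosome (x axis). Each point is a full 1 Mb bin, the long bar is the density of the whole chromosome with its 95% exact Poisson interval, and III (red) has the highest bar, at 48.2 per Mb.

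Set against the other 5 chromosomes together, III was denser in nearly all classes of region by q-value, width and ChIP to input ratio. Its density was 2.19 times as high for q under 1e-20. It was 1.93 times as high for ratios of 5 or more and 1.59 times for widths under 50 bp. It was lower, at 0.895 times, for widths of 1 kb or more, a class of only 6 regions on III. X was denser than III for ratios of 1 to 2 (1.753 against 1.743 per Mb) and of 2 to 3 (20.9 against 19.03). X was also denser for widths of 500 to 1000 bp (5.15 against 4.79 per Mb). Regions with q under 1e-05 numbered 135 on III, or 20.3% of its regions, against 20.0% of the whole list. Those under 1e-10 numbered 43, or 6.48%, against 5.98% of the list. The share of strong regions on III was therefore close to that of the list. Counted per Mb, III was the densest chromosome for q between 1e-10 and 1e-05 (6.68 per Mb), between 1e-05 and 0.001 (14.5) and between 0.001 and 0.01 (23.9). Below 1e-10 X was the densest. III had 29 regions with q from 1e-20 to 1e-10 (2.11 per Mb, with 2.601 on X) and 14 below 1e-20 (1.017 per Mb, with 1.018 on X).

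Regions on III had a median width of 207 bp (quartiles 96.5 and 343.25 bp), against 220.5 bp on the other chromosomes together. Elsewhere V had the smallest median, 179 bp, and X the largest, 248 bp. Narrow regions, under 50 bp, numbered 109, or 16.4% (13.7% to 19.5%, exact binomial interval), against 14.03% elsewhere. Their share was slightly higher on V, at 16.9%, and stood at 15.3% on IV. In density narrow regions reached 7.92 per Mb on III and 4.98 per Mb on the other chromosomes together. Regions of 200 to 500 bp were 1.28 times as dense on III as on the others together, with X close to III (20.19 against 20.55 per Mb). Regions of 1 kb or more were rare on III, with 6 in all, or 0.436 per Mb (0.16 to 0.948, exact Poisson interval). The other chromosomes together had 0.487 per Mb, which lies within that interval. IV (0.229) and V (0.24) had fewer per Mb than III.

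The deposited q-values also yield tag counts. Multiplied by its rank in the list, each q-value equalled 6924 times a lower binomial tail with share 0.5 for 1 or 2 pairs of ChIP and input tags, which reads as a number of tested regions times the p-value of the caller. All 101 levels shared by at least 8 regions matched within a relative tolerance of 1e-08, and the next best number of tested regions matched 0.99% of them. On III 663 of 664 regions had a single matching pair, and the remaining region is left out of tag values. The counts are thus inferred, with input on the scale the caller gave it, and the tag counts of the authors themselves were not analysed here.

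On that reading the median region of III held 41 ChIP tags (quartiles 27 and 63) and 14 input tags (quartiles 8 and 23.5). The median ratio of ChIP to input was 3.14 (3.04 to 3.22, order-statistic interval), the second highest of the chromosomes after V, at 3.20. The other chromosomes together had a median of 3. Ratios of 5 or more were found in 70 regions of III (10.6%), against 227 of 3045 elsewhere (7.45%). V had 77 such regions among its 687, a higher share than III. Per Mb these high ratios stood at 5.08 on III, 2.63 on the other chromosomes together and 3.69 on the next densest one. Of the 70, 25 were at least 200 bp wide. A region with few tags reaches the q limit only at a high ratio. The 109 regions under 50 bp had medians of 21 ChIP and 5 input tags and of 4 for the ratio, with a median q of 0.00338. Among regions of at least 200 bp, III had a median ratio of 2.79, below V and IV, against 2.73 for the others together. Listed ChIP tags summed to 2642 per Mb on III, ahead of 2559 per Mb on X.

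**Figure D2:**
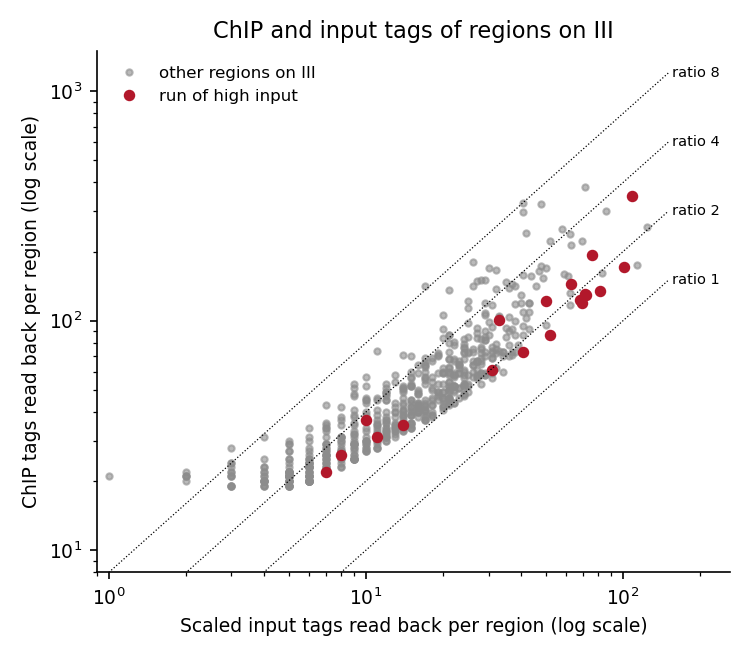
ChIP tags (y axis) against scaled input tags (x axis) inferred from the q-values, both on log scales, for the 663 regions of III with a single matching pair. Each point is a region, dotted lines mark equal ratios, and the 19 regions of a run of high input (red) lie between ratios of 1.67 and 3.70, those with the most tags mainly near 2.

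The strongest region of III by q-value was III:12612237-12612901, a 665 bp region with 325 ChIP and 41 input tags (ratio 7.93, 5.72 to 11.3) and q = 4.86e-53. It was followed by III:8801323-8802484, with 383 and 71 tags (ratio 5.39, 4.18 to 7.05). The third, III:4281674-4282724, had 324 and 48 tags (ratio 6.75, 4.97 to 9.34). These 3 lie in the right part, the centre and the left part of the chromosome. III:1920955-1921736 had 298 and 41 tags (ratio 7.27, 5.23 to 10.3), and III:1924901-1925670, in the same stretch of close regions, had 241 and 42 (ratio 5.74, 4.12 to 8.17). The other 5 of the 10 smallest q-values belonged to III:7155059-7156101 (ratio 3.25), III:8795478-8796221 (4.31), III:4649178-4649700 (6.92), III:8799731-8800932 (3.49) and III:3801232-3801832 (4.29). The 10 regions were 523 to 1202 bp wide, with q-values from 4.86e-53 to 2.06e-24.

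The 5 widest regions of III were largely the same. III:8799731-8800932 (1202 bp), III:8801323-8802484 (1162 bp), III:4281674-4282724 (1051 bp) and III:7155059-7156101 (1043 bp) are all among the 10 above. The exception was III:7115914-7117056 (1143 bp), which ranked only 45 on III by q-value, with 256 ChIP and 124 input tags and a ratio of 2.06 (1.66 to 2.58). It had more input tags than any other region of III.

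Among regions of at least 200 bp the highest ratio was at III:1923431-1923907, with 142 ChIP and 17 input tags (8.35, 5.04 to 14.7), followed by the regions at 12612237 and 1920955 described above. The lowest was at III:1299604-1300480, with 174 and 113 tags (1.54, 1.21 to 1.97). Next came III:7189400-7190146 (1.67, 1.26 to 2.22) and III:7203030-7203467 (1.67, 1.17 to 2.41). The 3 highest thus had 17 to 41 input tags, and the 3 lowest 52 to 113. The choice by ratio partly fixes this contrast, since input is the denominator and a low ratio passes the q limit only with many tags. At the other end of the list, the 3 regions of III just inside the limit of q under 0.01 were III:11558344-11558373 and III:5225032-5225081, each with 23 ChIP and 8 input tags, and III:11920263-11920462, with 38 and 18. Their q-values lay between 0.00983 and 0.00996, and regions outside the limit were not analysed here.

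Along the chromosome the regions were sparsest in the left part, with the lowest 1 Mb bin away from its very end. The first 1 Mb held 38 regions, and the bin from 2 to 3 Mb held 28, the fewest of the full 1 Mb bins. III was divided into 3 parts of equal length at 4.59 and 9.18 Mb. The left part held 190 regions (28.6%, 25.2% to 32.2%), the centre 248 (37.3%, 33.7% to 41.2%) and the right part 226 (34.04%, 30.4% to 37.8%). In density these were 41.4, 54.03 and 49.2 per Mb. Without a run of regions with high input, described further on, the centre held 229 regions (35.5% of the rest), close to the 226 of the right part. No dense place of the right part was left out in the same way. On the other chromosomes together the parts had 32.3, 40.2 and 34.04 per Mb, so that each part of III was above the corresponding value. The share in the centre was about as high elsewhere (37.7% of 3064 regions). The densest part of any other chromosome was the right part of X, with 48.2 per Mb.

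The fixed bins of 500 kb show where the left part is sparse. From the left end to 3.5 Mb, the 7 bins held 11 to 22 regions each, and the next 2 bins, to 4.5 Mb, held 33 and 34. The median of the 27 full bins was 22 regions, against 17 in the 169 full bins of the other chromosomes. Only 1 of the 7 bins up to 3.5 Mb was above 17, which is a median over all positions of the other chromosomes. Their left parts were sparse too, and the left part of III was denser than those together (41.4 against 32.3 per Mb). The 3 fullest bins were 8.5 to 9 Mb with 40 regions, 7 to 7.5 Mb with 37, and 4 to 4.5 Mb and 12.5 to 13 Mb with 34 each. The 3 emptiest were 2 to 2.5 Mb with 11, 12 to 12.5 Mb with 15, and a tie of 0 to 0.5, 1.5 to 2 and 9 to 9.5 Mb with 16. Full and empty bins lay next to each other, as at 8.5 to 9.5 Mb, where 40 regions were followed by 16. The right end was not sparse, since the last 10% of the chromosome held 78 regions (56.6 per Mb) and the first 10% held 51 (37.03 per Mb).

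**Figure D3:**
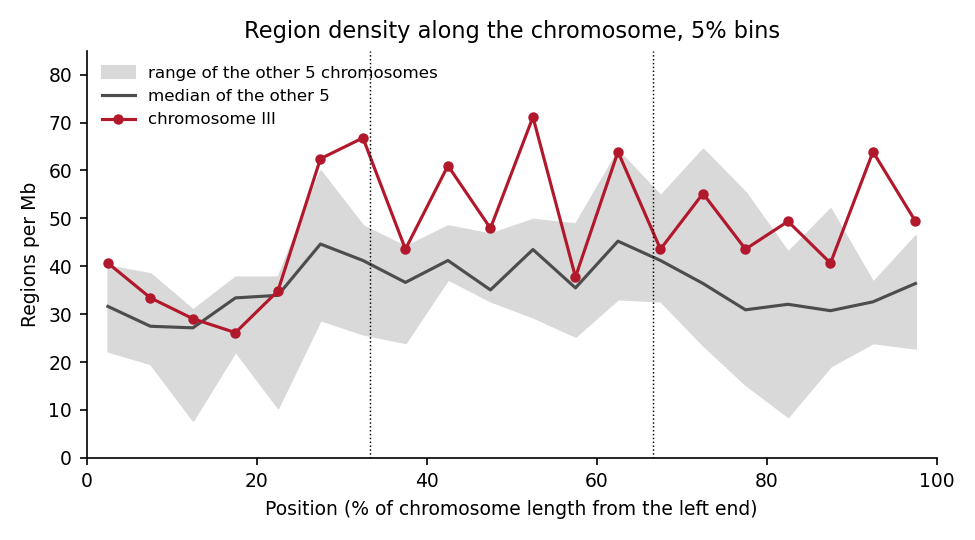
Regions per Mb (y axis) in bins of 5% of chromosome length (x axis) for III (red line and points), with the median (dark line) and range (grey) of the other 5 chromosomes. Dotted lines divide the chromosome into 3 equal parts, and III lies above the median in 19 of 20 bins and is the highest of the 6 in 9.

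Bins with many regions were not always those with high ratios. The bin from 1.5 to 2 Mb, with 16 regions, had the highest median ratio of the 500 kb bins, 4.65, and 8 regions with q under 1e-05. The bin from 9.5 to 10 Mb, with 33 regions, had a median ratio of 3.09 and 7 such regions. The bin from 7 to 7.5 Mb had the lowest median ratio, 2.15, with 37 regions.

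The parts of the chromosome also differed in tag density. To lessen the part of width, only regions of at least 200 bp were compared, and tags were counted per kb of region. Width can still enter. Over all regions its median was 242 bp in the centre and 200 bp in the left and in the right part. Input tags had a median of 72.7 per kb in the 143 regions of the centre, 62.5 in the 98 of the left part and 62.9 in the 114 of the right part. The quartiles overlapped, at 61.03 to 89.96 per kb in the centre and 52.1 to 77.6 in the left part. ChIP tags stood at 192.1, 195.4 and 190.1 per kb in the centre, the left and the right part, so the medians of ChIP density lay closer together than those of input density. The median ratio was accordingly lowest in the centre (2.54, quartiles 2.15 and 3.19), then 2.86 in the right part and 3.11 in the left part (2.42 and 3.79). Without the 14 regions of the run of high input, the centre had 71.1 input tags per kb and a median ratio of 2.57.

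Regions on III lay closer to each other than those of the other chromosomes. The median distance between neighbouring midpoints was 11352.5 bp (9328 to 13346.5 bp, order-statistic interval), and between 12940.2 bp on X and 16496.5 bp on IV elsewhere. A higher density shortens distances by itself. Neighbours within 2 kb made up 137 of 663 pairs, or 20.7% (17.6% to 23.9%), where the other chromosomes had 15.3% to 17.3%. Pairs from 0.5 to 1 kb apart were 7.39% on III and 4.97% elsewhere. Pairs up to 0.5 kb were too few to compare, with 4 on III (0.603%) and 22 elsewhere (0.719%). No gap between neighbours in the list was shorter than 202 bp. Distances over 100 kb made up 1.96% of the pairs on III and 5.23% elsewhere.

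**Figure D4:**
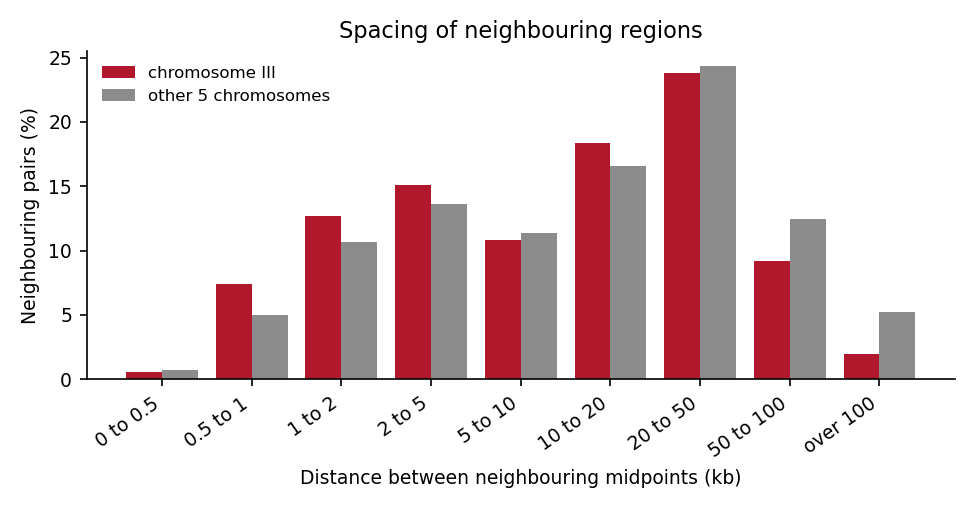
Share of neighbouring pairs (y axis, %) by distance between midpoints (x axis, kb) for III (red, 663 pairs) and the other 5 chromosomes (grey, 3059 pairs). III has larger shares from 0.5 to 5 kb and from 10 to 20 kb, and smaller ones above 20 kb.

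The longest stretch of III without a region was III:3068212-3271503, at 203292 bp, shorter than the longest gap of any other chromosome (228803 to 508778 bp). The next were III:154445-312883 (158439 bp) and III:1951691-2090849 (139159 bp). All 3 lie in the left part, which was also the sparsest.

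When neighbours with at most 2 kb between them were joined, the regions formed 106 stretches of 2 or more, with 258 regions (38.9%) between them, and 406 regions stood alone. On the other chromosomes the share of regions in such stretches was 29.7% to 31.8%. A higher density by itself puts more regions into stretches. Most stretches were small, with 79 pairs, 18 of 3 regions, 2 of 4, 4 of 5 and 3 of 6. Regions in stretches had a median width of 224 bp and a median of 17 input tags, and single regions 195 bp and 13. Those with q under 1e-05 numbered 69 (26.7%) among regions in stretches and 66 (16.3%) among single regions. Of the 10 strongest regions by q-value, 9 lay in stretches, in 7 different ones. How the caller splits or joins nearby sites was not tested.

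The 7 stretches of 5 or more regions were of different kinds. At III:1920955-1926844, 5 regions held 840 ChIP and 125 input tags (ratio 6.72), and 4 of the 5 were among the 15 smallest q-values of III. Every region of it had a ratio of at least 5.74. At III:12611465-12617190, 6 regions summed to 558 and 107 tags (ratio 5.21), and a single region, the strongest of III, held 325 of these ChIP tags. The 5 regions at III:5836452-5841875 were weak throughout, with widths of 13 to 263 bp, no q below 0.00268 and 167 ChIP against 66 input tags (ratio 2.53). The other 4 lay in between. They were III:6359226-6364767 (6 regions, ratio 3.1), III:9662443-9668362 (6 regions, 2.66), III:8982031-8987180 (5 regions, 2.57) and III:13462867-13466418 (5 regions, 2.57), with smallest q-values from 3.60e-15 to 2.79e-06.

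Another dense place held 5 regions in 2 neighbouring stretches. At III:8794655-8797694, 3 regions had 467 ChIP and 116 input tags (ratio 4.03). At III:8799731-8802484, 2036 bp of unlisted sequence further on, 2 regions of 1202 and 1162 bp covered 85.8% of the stretch, with 683 and 157 tags (ratio 4.35). These 5 regions include 3 of the 10 strongest of III, and the 100 kb bin from 8.8 to 8.9 Mb, which holds the second of the stretches, had 10 regions.

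The 3 fullest 100 kb bins were 7.1 to 7.2 Mb with 18 regions and 3.8 to 3.9, 6.3 to 6.4 and 9.6 to 9.7 Mb, tied at 12. The median bin had 4. Bins of 10 or more regions made up 8.03% of the 137 full bins on III and 2.68% of the 859 on the other chromosomes. A higher density by itself brings more bins to a fixed limit. The variance of the 100 kb counts divided by their mean, partial bins included, was 1.79 on III. It ranked 5 of the 6 chromosomes from the highest, with 1.52 to 2.31 on the others. The bin from 7.1 to 7.2 Mb was the fullest of the 6 chromosomes, where the fullest elsewhere had 17, and had a median ratio of 2.13, below the median of 3.14 of III.

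That bin overlaps a run of regions with high input at III:7153731-7335552. The run was found as overlapping windows of 7 consecutive regions of at least 200 bp whose median input density exceeded 1.5 times the median of the list, 67.8 tags per kb. It was pointed to by earlier results of these data, so it is described only. It held 19 regions in 181822 bp, and the first 14 of them lay within 63632 bp. The 14 regions of at least 200 bp had a median of 106 input tags per kb (80.9 to 146.9), against 66.1 (quartiles 53.3 and 79.9) in the 341 such regions of III outside the run. All 14 lay above the upper quartile outside, which the choice of the run by input density largely fixes. ChIP tags were at 198 per kb in the run (quartiles 181.8 and 244.6) and 192.6 outside (170 and 208.95), so the 2 sets overlapped in ChIP density.

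**Figure D5:**
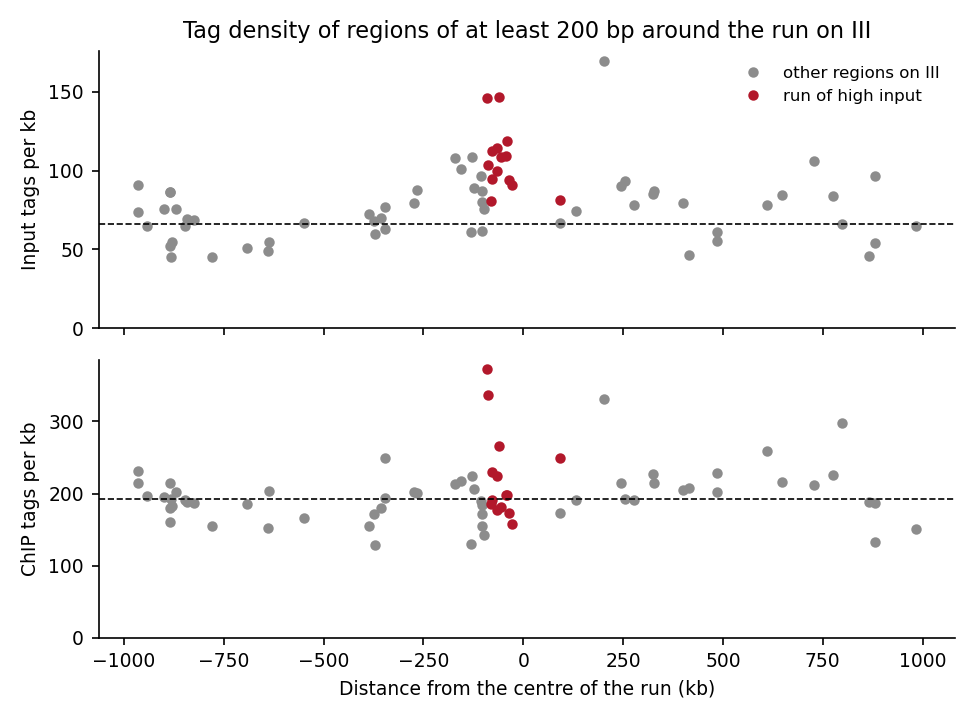
Input tags (upper panel) and ChIP tags (lower panel) per kb of region (y axes) against distance from the centre of the run (x axis, kb), for regions of III of at least 200 bp up to 1000 kb away. Dashed lines are medians outside the run, 66.1 and 192.6 per kb, and all red points of the run lie above the line for input but on both sides of it for ChIP.

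The ratios in the run were low, as its choice largely fixes, since input is the denominator of the ratio. Its regions of at least 200 bp had a median ratio of 1.83 (quartiles 1.75 and 2.40), against 2.83 (2.36 and 3.64) outside. Ratios under 2 were found in 9 of these 14, and in 4.399% of those outside. The run was not weak as a whole, since III:7155059-7156101, with 351 ChIP and 108 input tags, had the sixth smallest q-value of III, and III:7153731-7154251 beside it had 194 and 76 tags (ratio 2.55). The lowest ratios in the run were those of III:7189400-7190146 and III:7203030-7203467, both 1.67, given above. III:7183902-7184391, with the highest input density among its regions of at least 200 bp, had 130 and 72 tags and a ratio near the median of these (1.81, 1.34 to 2.44). Summed over its 19 regions, the run had 2095 ChIP and 966 input tags (ratio 2.17) and 5 regions with q under 1e-05. Of the 18 regions in the fullest 100 kb bin, 10 belonged to the run, and the part of input density in that bin was not tested. Without the run, III had 645 regions and 46.8 per Mb, still the highest of the 6 chromosomes.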

How the data were processed

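EGL-27::GFP binding was measured by ChIP-seq in fed L1 larvae, in 2 ChIP and 2 input libraries. Regions were called with PeakSeq on the build WormBase WS180, per the file headers and entries. The q-value of each region is the authors', deposited once per region in a list described as combined. Aligner, input scaling, caller settings and depth are not given in the sources consulted. Region midpoints were counted in bins of 100 kb, 500 kb and 1 Mb from base 1 and in 3 equal parts of each chromosome, with length taken as the last listed base. Stretches join neighbours with at most 2 kb between them. Tag pairs were read back from q-value times list rank for sums of up to 6000 tags, after scanning 3728 to 20000 tested regions. The code was checked on data simulated with the same formula, which cannot show that the deposited q-values were made that way. Intervals are exact 95% Poisson or binomial intervals, or order-statistic intervals of medians. No p-value was computed, since the list pools the replicates. Regions named are the 10 smallest q-values, the 5 widest, the stretches of 5 or more, the 3 fullest and emptiest bins, the 3 longest gaps, the 3 highest and lowest tag ratios at 200 bp or more, the 3 just inside the limit, and the run of high input. A few others, as the stretches near 8.8 Mb, were chosen after their values were seen. The regions and lists were chosen with earlier results of these data known. Gene symbols, chromosomes and gene counts come from RefSeq's table of WBcel235, and no coordinate of it was used. Python 3.11.15, numpy 2.4.6, pandas 2.3.3, SciPy 1.17.1 and matplotlib 3.10.9 were used.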

Additional observations from a re-analysis of the deposited data

How the results depend on the processing

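Of 36 values recomputed, 9 of them under settings added after the data were seen, 24 stayed within 1.5 times (counts and density) or within their 95% interval, and 12 moved. With the better-scored 50% of the list, III had 24.5 regions per Mb, a median width of 328 bp, a median distance of 26247.5 bp, 12.8% of neighbours within 2 kb, 41 stretches and a median ratio of 3.38; fewer regions lie further apart by construction. The median width was 244 bp without regions under 50 bp, and the median ratio 2.79 in regions of at least 200 bp. Neighbours within 2 kb made up 15.2% after merging regions within 500 bp, and joining over 1 kb left 62 stretches. The centre held 42.1% of covered base pairs, and the central 50% of the length, a larger part by construction, 57.4% of regions. For density, III stayed first of the 6 chromosomes with the better-scored 50% (next 21.1 per Mb), merged regions, regions under 50 bp left out and the run of high input left out. No paired analysis was possible because each region has 1 value for both replicates, which also prevents leaving 1 of them out. Depth is unknown, so it cannot be said which weak regions it kept from the list.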

Other observations

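Among regions of at least 200 bp, the median of input tags per kb was highest in the central part on all 6 chromosomes, on some only slightly. On III the medians were 72.7 in the centre, 62.5 on the left and 62.9 on the right. On I they were 75.1, 66.3 and 62.6, and on II 73.5, 67.6 and 66.5. The differences were smaller on IV (65.04, 62.9 and 63.3), V (63.9, 63.7 and 61.1) and X (74.2, 72.2 and 68.5). On V the centre and the left part were nearly equal, with overlapping quartiles (56.3 to 75.7 and 51.6 to 75.5). The median ratio was lowest in the centre on I, II, III and X, and lay between the other parts on IV and V. Whether these differences bear on the number of regions listed was not tested.

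The extent of the run of high input on III depended on its limit. With windows above 1.3 times the list median it reached from 7141977 to 7498655, and a further run lay beside it at III:6971855-7141658. At that limit there were also runs on I (1), II (2), IV (1) and X (3), so such runs were not confined to III. The region of III with the highest input density among those of at least 200 bp, III:7446842-7447330, lies in the longer of these, with 162 ChIP and 83 input tags in 489 bp (169.7 input tags per kb). At 1.5 times the median the only other run in the list was at II:6827189-6968628. III:1299604-1300480, with 128.8 input tags per kb and the lowest ratio on III at this width, lies outside all of these.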
